A study of Mus musculus with 16 samples.

Results

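The genes described here are those that make, use and recycle glutathione, the peroxiredoxins and thioredoxin reductases, and a small set of genes under the stress-responsive transcription factor NRF2. Members were the protein-coding genes whose symbol belongs to the Gst, Mgst, Gpx, Prdx or Txnrd families, together with Gclc, Gclm, Gss, Gsr, Nqo1, Hmox1, Srxn1, Slc7a11, Nfe2l2 and Keap1. The rule found 52 genes among the 21811 protein-coding genes matched in a table of 49315 genes, and it used names only, no measured value. By role these were 5 genes of glutathione synthesis and recycling, 2 for NRF2 and its inhibitor, 3 other NRF2 targets, 3 thioredoxin reductases, 6 peroxiredoxins, 8 glutathione peroxidases, 22 cytosolic glutathione S-transferases (GSTs) and 3 microsomal GSTs. The group called cytosolic here holds every Gst member, and so also Gstk1 of the kappa class, which is not a cytosolic enzyme.

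Glutathione is the small sulphur-bearing peptide that cells keep at high concentration to remove peroxides and to tag reactive compounds for export. Glutamate-cysteine ligase (catalytic subunit Gclc, modifier subunit Gclm) and glutathione synthetase (Gss) make it from cysteine, which the transporter Slc7a11 brings in as cystine, glutathione peroxidases spend it on peroxides, and glutathione reductase (Gsr) restores it. GSTs couple it to electrophiles, and in the airway they are known as enzymes of epithelial cells that meet inhaled chemicals. NRF2, encoded by Nfe2l2, is held and marked for destruction by KEAP1 in resting cells, so that its activity is set mainly at the protein level, and once freed it binds antioxidant response elements near many of these genes.

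RNA was sequenced from primary mouse tracheal epithelial cell cultures (MTECs) of male (M) and female (F) mice, wild type (WT) or labelled knockout (KO) for the lectin LMAN1, a receptor for house dust mite (HDM). KO mice and their WT littermates were of the C57BL/6J strain, and tracheas were pooled so that one preparation served more than 1 condition. Cells were grown at an air-liquid interface on inserts coated with matrix made by 3T3 fibroblasts, then left untreated (naive) or given HDM extract at 20 µg/ml overnight. The 8 groups (sex, genotype label and treatment) held 2 biological replicates each, 16 libraries in all, and the ages of the mice were not given in the sources used here.

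Libraries held 21860698 to 43442188 counts, and levels are given as CPM, the count of a gene scaled to a common library size with TMM factors. Lman1, the targeted gene, ran from 101 to 144 CPM in the 8 WT libraries. It lay at 12.8 to 14.2 CPM in 3 of the 8 libraries labelled KO (both F naive libraries and M naive replicate 1) but at 63.4 to 78.1 CPM in the other 5, which goes against their label, so "KO-labelled" is used throughout. Every KO-labelled HDM library was among those 5, and each direction drawn from them is that of the label. Epithelial markers (Epcam, Cdh1, Krt8, Krt18) summed to 2899.9 to 7469 CPM, and basal and secretory markers were present. A list of immune markers summed to 93.7 to 284 CPM, most of it the lysozyme gene Lyz2, with the leukocyte gene Ptprc and the macrophage genes Cd68 and Adgre1 also detected in every library.

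Antioxidant response elements were looked for in promoters because NRF2 acts through them. The core TGACNNNGC was searched on both strands of RefSeq promoter windows of GRCm38.p6, each 300 bases long from 250 before to 50 after a start. Of the 52 members 46 had a window, and 9 of these (19.6%) held the core (Gsta3, Nfe2l2, Srxn1, Gstm5, Gstm7, Gclm, Prdx1, Mgst1 and Txnrd1), against 14.0% of all 27025 genes with a window. The 6 members without a window (Prdx6, Gsta4, Hmox1, Gclc, Gsr and Gstt2) were not searched. In windows rather than genes, 9 of the 60 windows of members held it, against 12.4% of all 32851. Only the Prdx1 match also held the AP-1 core TGACTCA, which overlaps the searched letters. A match is a description of letters and says nothing of binding. The windows of 4 genes are shown 5′ to 3′ with the matched letters in capitals, chosen because Gsta3 and Gclm fell with HDM in F WT cultures while Prdx1 and Nfe2l2 did not pass the test there.
Gsta3, chr1:21240335-21240634, plus strand: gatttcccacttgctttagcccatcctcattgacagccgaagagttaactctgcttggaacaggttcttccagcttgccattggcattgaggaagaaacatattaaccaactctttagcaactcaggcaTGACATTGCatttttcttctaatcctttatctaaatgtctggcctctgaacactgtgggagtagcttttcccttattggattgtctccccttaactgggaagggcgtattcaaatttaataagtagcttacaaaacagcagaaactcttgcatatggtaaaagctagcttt
Gclm, chr3:122245307-122245606, plus strand: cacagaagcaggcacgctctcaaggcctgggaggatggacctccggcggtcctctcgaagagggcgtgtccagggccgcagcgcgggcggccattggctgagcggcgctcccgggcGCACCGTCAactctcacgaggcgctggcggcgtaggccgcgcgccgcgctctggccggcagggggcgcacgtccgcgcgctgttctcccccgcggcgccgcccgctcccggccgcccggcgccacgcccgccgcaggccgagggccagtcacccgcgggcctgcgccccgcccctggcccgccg
Prdx1, chr4:116685349-116685648, plus strand: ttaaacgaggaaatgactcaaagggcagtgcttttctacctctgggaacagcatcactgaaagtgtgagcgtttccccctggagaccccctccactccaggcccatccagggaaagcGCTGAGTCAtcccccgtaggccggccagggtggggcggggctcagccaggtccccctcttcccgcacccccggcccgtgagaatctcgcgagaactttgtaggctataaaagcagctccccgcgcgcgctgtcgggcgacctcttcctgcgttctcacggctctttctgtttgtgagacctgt
Nfe2l2, chr2:75704614-75704913, minus strand: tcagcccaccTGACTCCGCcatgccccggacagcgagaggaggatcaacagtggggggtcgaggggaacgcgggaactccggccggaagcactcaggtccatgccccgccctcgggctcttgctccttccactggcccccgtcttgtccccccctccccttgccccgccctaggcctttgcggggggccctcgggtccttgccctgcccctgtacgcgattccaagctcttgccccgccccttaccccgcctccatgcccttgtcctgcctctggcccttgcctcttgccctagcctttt
The match lay 121 bases before the start in Gsta3, 134 in Gclm (on the opposite strand), 133 in Prdx1 (opposite strand) and 240 in Nfe2l2.

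Levels of the members spanned a wide range. Per kilobase of exon, the highest mean level over the 16 libraries was that of Gsto1, a GST of the omega class, at 2408 CPM per kb. Gsta4, which handles products of lipid peroxidation, followed at 931 and Gstm1, of the mu class, at 797 CPM per kb. Prdx1 led the peroxiredoxins with 255 CPM per kb, and Gpx2, the epithelial glutathione peroxidase, led its family with 145. In the remaining roles the highest were Gclc with 131, Nfe2l2 with 115, Mgst1 with 106, Srxn1 with 40.7 and Txnrd1 with 40.1 CPM per kb. Of the 52 members, 47 had counts high enough to be tested. Gpx5 and Gpx6 had 0 counts in every library, which allows up to 0.0691 to 0.137 CPM depending on the library (3 counts, counting error only). Gstt4 had 0 to 2 counts, Gstp3 0 to 6 and Gstt2 2 to 9.

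**Figure D1:**
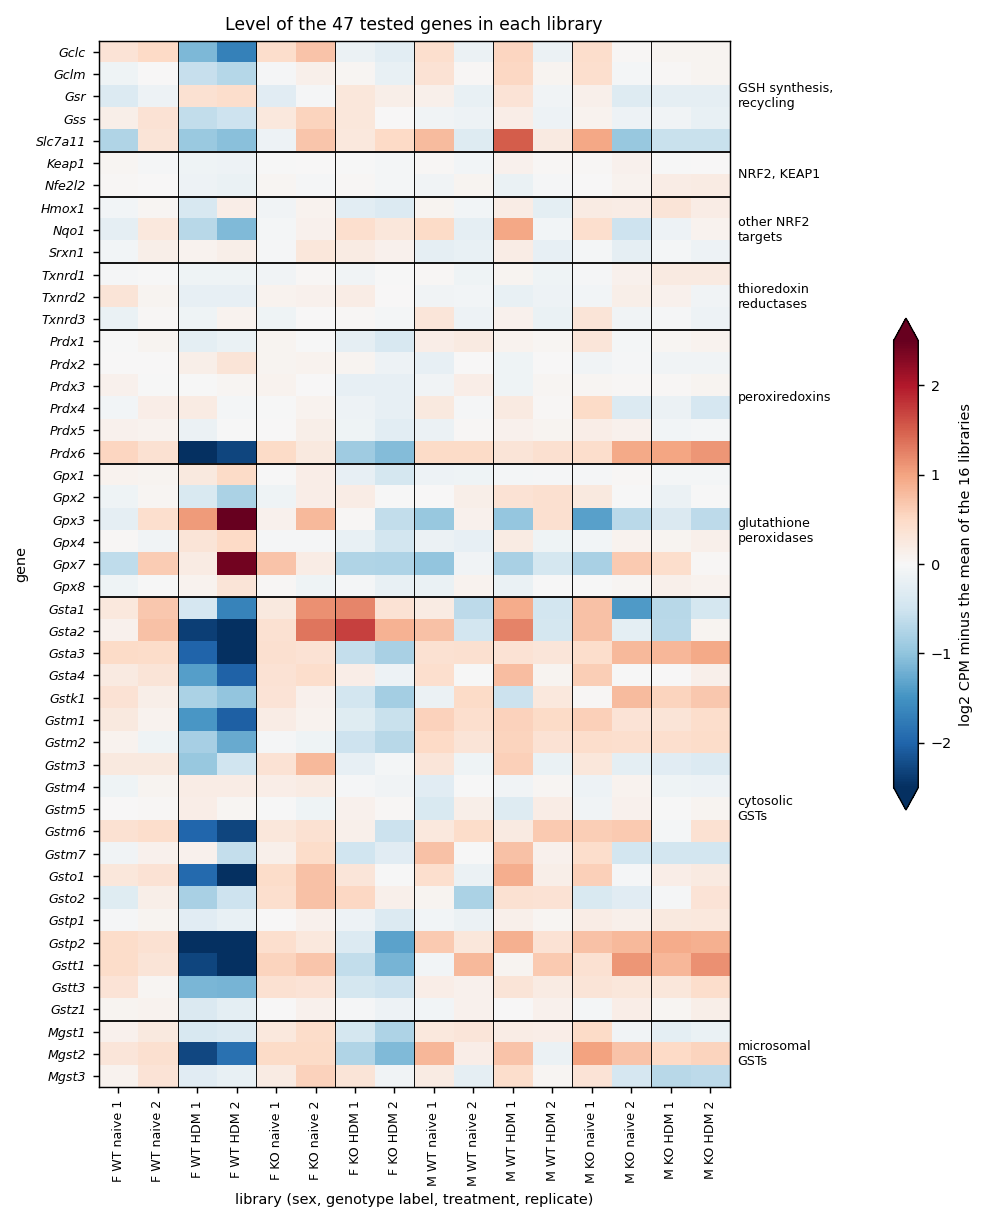
Level of each of the 47 tested genes (rows, by role) in each of the 16 libraries (columns), as log2 CPM minus the gene's mean over the libraries, with colours saturating at 2.5 in either direction. The 2 F WT HDM libraries hold the darkest blue cells, most of them among the GSTs and at Prdx6, while the rows of Nfe2l2, Keap1 and Txnrd1 are pale throughout.

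The first question was what HDM did to these genes in F WT cultures. Of the 47 tested members 22 fell and 4 rose, and 21 did not pass the test. Cytosolic GSTs made up most of the falls (14 of 19 tested, none rose), with the leading peroxiredoxin change in Prdx6 and with 3 of the 5 glutathione synthesis and recycling genes. Calls are those of edgeR (quasi-likelihood fit, Benjamini-Hochberg over all 15993 genes tested) at an adjusted p under 0.05. In the same comparison 43.1% of all genes were called, 20.6% higher and 22.4% lower, so the 8.51% of members that rose lay below the background and the 46.8% that fell lay above it. The median log2 change of members was -0.45, beside -0.02 over all genes tested.

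Gclc, the rate-limiting subunit of glutathione synthesis, stood at 578 and 642 CPM in the naive libraries and 210.2 and 141 CPM in the HDM libraries. The HDM libraries lay below the naive ones without overlap, 3.47-fold lower (log2 change -1.80 ± 0.26, adjusted p = 0.000229, with ± here and later the SE). Gclm, the subunit that raises the efficiency of Gclc, had 184 and 199 CPM in the naive libraries and 132 and 120.0 CPM in the HDM libraries, a smaller fall (log2 change -0.60 ± 0.18, adjusted p = 0.0166). Gss, which adds glycine in the final step, fell from 84.6 and 98.9 to 50.3 and 53.5 CPM (log2 change -0.82 ± 0.13, adjusted p = 0.000516). Gsr moved the other way, from 143 and 167 to 238 and 246 CPM (log2 change 0.64 ± 0.17, adjusted p = 0.0106), so the gene that recycles glutathione rose while the genes that make it fell. Slc7a11 had 19.9 and 41.9 CPM in the naive libraries and 17.7 and 16.2 CPM in the HDM libraries, and it did not pass the test (log2 change -0.88 ± 0.62, adjusted p = 0.277).

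Nfe2l2 itself had 441 and 439 CPM in the naive libraries and 400.5 and 389.8 CPM in the HDM libraries. The HDM libraries were lower without overlap, but by a small amount that did not pass the test (log2 change -0.15 ± 0.08, adjusted p = 0.136). Keap1 was at 120.0 and 114 CPM in the naive libraries and 108 and 106 CPM in the HDM libraries (log2 change -0.13 ± 0.06, adjusted p = 0.0982). Among targets of NRF2, Srxn1, which repairs overoxidized peroxiredoxins, had 109 and 127 CPM in the naive libraries and 121 and 126 CPM in the HDM libraries, with groups that overlapped (log2 change 0.07 ± 0.13). Hmox1, which breaks down haem, had 56.0 and 60.8 CPM in the naive libraries and 44.5 and 65.8 CPM in the HDM libraries, again overlapping (log2 change -0.08 ± 0.17). Nqo1, a quinone reductase often read as a marker of NRF2 activity, had 41.5 and 58.6 CPM in the naive libraries and 30.0 and 22.5 CPM in the HDM libraries, lower in both HDM libraries (log2 change -0.93 ± 0.37, adjusted p = 0.0607). Txnrd1, the cytosolic thioredoxin reductase, held 277 and 281 CPM in the naive libraries and 263 and 264 CPM in the HDM libraries (log2 change -0.08 ± 0.08). Of these 6 genes none passed the test in F WT cultures, and 1 of the 3 thioredoxin reductases did, the mitochondrial Txnrd2 (log2 change -0.41 ± 0.11, adjusted p = 0.0122).

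The peroxiredoxins, which reduce peroxides with thioredoxin or glutathione as helper, divided sharply. Prdx6, the 1-cysteine member that draws on glutathione, had 1147 and 1035 CPM in the naive libraries and 140.2 and 162 CPM in the HDM libraries. Both HDM libraries were far below both naive libraries, 7.23-fold lower (log2 change -2.85 ± 0.16, adjusted p = 3.96e-07). None of the other 5 passed the test, with log2 changes from -0.23 (Prdx1) to 0.23 (Prdx2). Prdx1, the cytosolic member with the highest level per length, had 762 and 808 CPM in the naive libraries and 649 and 691 CPM in the HDM libraries, so its libraries did not overlap but lay close together.

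The glutathione peroxidases were the only family with more rises than falls. Gpx4, which protects membrane lipids, had 210.5 and 193 CPM in the naive libraries and 256 and 289.7 CPM in the HDM libraries (log2 change 0.43 ± 0.12, adjusted p = 0.0103), and Gpx1, the main cytosolic form, had 74.0 and 72.8 CPM in the naive libraries and 82.1 and 95.9 CPM in the HDM libraries (log2 change 0.28 ± 0.09, adjusted p = 0.0295). Gpx2 fell, from 424 and 472 to 351 and 264 CPM (log2 change -0.54 ± 0.15, adjusted p = 0.0107). Gpx3, the secreted form, had 3.74 and 5.89 CPM in the naive libraries and 9.16 and 32.4 CPM in the HDM libraries (log2 change 2.10 ± 0.61, adjusted p = 0.0155), with replicates that lay much further apart than those of the other called glutathione peroxidases. Without F WT HDM replicate 2 its log2 change was 0.93, and without F WT naive replicate 1 it was 1.82, neither of them called. Fibroblast markers summed to 26.7 and 538 CPM in the F WT naive libraries and to 48.9 and 595 CPM in the HDM libraries, replicate 2 being the high one in both, and their part in the Gpx3 value was not tested. Gpx7 (log2 change 1.56 ± 0.69, adjusted p = 0.0885) and Gpx8 (0.27 ± 0.10, adjusted p = 0.0561) did not pass the test, and Gpx7 was likewise highest in F WT HDM replicate 2, at 3.65 CPM.

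Among the cytosolic GSTs the most abundant fell along with rare ones. Gsto1 had 5200.4 and 5524 CPM in the naive libraries and 1109 and 762 CPM in the HDM libraries, a 5.73-fold lower mean level (log2 change -2.52 ± 0.31, adjusted p = 7.73e-05). Gsta3, of the alpha class, had 418 and 410.1 CPM in the naive libraries and 75.1 and 43.4 CPM in the HDM libraries (log2 change -2.80 ± 0.21, adjusted p = 2.02e-06). Gstm1 went from 1253 and 1128 to 388 and 260.1 CPM (log2 change -1.88 ± 0.17, adjusted p = 1.05e-05). In all of these the naive and HDM libraries stood well apart. Gsta4 went from 1260.5 and 1344 to 415 and 266 CPM (log2 change -1.94 ± 0.28, adjusted p = 0.00023), Gstm2 from 267 and 233 to 141 and 105 (log2 change -1.02 ± 0.13, adjusted p = 0.000119) and Gstt3, of the theta class, from 35.6 and 28.9 to 12.7 and 12.6 CPM (log2 change -1.35 ± 0.10, adjusted p = 2.85e-06). Less abundant genes fell too. Gsta2 had 38 and 96 counts in the naive and 5 and 1 in the HDM libraries, 1.38 and 2.16 against 0.208 and 0.0474 CPM (log2 change -3.72 ± 0.90, adjusted p = 0.00598). Gstt1 went from 1.42 and 1.28 to 0.166 and 0.0947 CPM (log2 change -3.31 ± 0.51, adjusted p = 0.000358), the HDM values resting on 4 and 2 counts. Gstp2, of the pi class, went from 13.4 and 12.6 to 1.62 and 1.33 CPM (log2 change -3.13 ± 0.31, adjusted p = 1.7e-05), and Gstm6 from 3.02 and 3.12 to 0.541 and 0.426 CPM (log2 change -2.65 ± 0.30, adjusted p = 3.93e-05). These 4 genes were at low levels even before treatment. The other called falls were Gstk1, Gstm3, Gstz1 and Gstp1, with log2 changes from -1.16 to -0.25. Of the microsomal enzymes, Mgst2 went from 6.94 and 7.44 to 1.12 and 1.52 CPM (log2 change -2.45 ± 0.32, adjusted p = 0.000121) and Mgst1 from 223 and 243 to 156 and 163 CPM (log2 change -0.55 ± 0.15, adjusted p = 0.0142), while Mgst3 did not pass the test. All GSTs together took up 0.909% of counts in F WT naive and 0.219% in F WT HDM cultures (means of 2).

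GST genes lie in clusters, and within a cluster the values differed. The 7 mu class genes lie within 149 kb of chromosome 3 (chr3:107895821-108044894, GRCm38). Of these Gstm1, Gstm2, Gstm3 and Gstm6 fell, while Gstm4 (10.9 and 12.3 then 13.2 and 13.2 CPM) and Gstm5 (16.4 and 16.7 then 18.3 and 17.0 CPM) had log2 changes of 0.19 ± 0.12 and 0.09 ± 0.18, and Gstm7 of -0.22 ± 0.36, not called. Gstm5 and Gstm7 are also the mu class genes whose promoter windows held the NRF2 core. Outside this class Gsta3, Gclm and Mgst1 held the core and fell, while Nfe2l2, Srxn1, Prdx1 and Txnrd1 held it and were not called. A link between the core and the HDM change was not tested. On chromosome 19, Gstp1 (chr19:4035407-4037985) changed by -0.25 ± 0.08 and its neighbour Gstp2 (chr19:4040285-4046023) by -3.13 ± 0.31. Gsto1 (chr19:47854970-47864790) changed by -2.52 ± 0.31 and the adjacent Gsto2 (chr19:47865534-47886324) by -0.66 ± 0.36, the latter not called and resting on 12 to 45 counts a library. Near-identical copies such as Gsta1 and Gsta2, or Gstp1 and Gstp2, may share reads, and how the counting split them was not given in the sources used here, so single values in these clusters are uncertain to that extent.

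Many markers of the epithelial cell types also changed with HDM in F WT cultures. Summed secretory markers were 13189 to 17444 CPM in F WT naive and 3766 to 4656 CPM in F WT HDM libraries, with 7 of 7 called lower. Summed basal markers were 9471 to 10341 and 1971 to 3978 CPM, with 5 of 6 called lower, whereas the 4 general epithelial markers were all called higher. The goblet markers Spdef (-4.29 ± 0.38), Muc5ac (-2.97 ± 0.41) and Foxa3 (-2.85 ± 0.84) were all called lower. Among multiciliated markers Tekt4 (-6.01 ± 1.38), Tekt1 (-5.26 ± 1.15), Dnah9, Rsph1 and Ccdc39 were called lower, but Foxj1 (0.06 ± 0.34) and Dnah5 were not. Of squamous markers Krt13 (-2.81 ± 0.42) was called lower, Ivl (1.5 ± 0.52) higher and the others in neither direction. Among immune markers Lyz2 (-1.55 ± 0.18) and Cd68 (-1.32 ± 0.24) were called lower, 2 of 4 tested, and among fibroblast markers 2 of 7 were called higher. In bulk RNA, fewer cells of a type and less RNA per cell cannot be told apart, and the part of cell makeup in the GST and Prdx6 values was not tested. Leaving out F WT HDM replicate 2 lowered the count of called members from 26 to 16, the sharpest drop of any library. Without F WT HDM replicate 1, F WT naive replicate 1 or F WT naive replicate 2 the count was 24, 20 and 19. Calls that held whichever of these 4 libraries was left out numbered 13, namely Prdx6, Gsto1, Gsta3, Gsta4, Gstm1, Gstm2, Gstm6, Gstp2, Gstt1, Gstt3, Mgst2, Gclc and Gss, and all 4 rises were lost at least once.

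**Figure D2:**
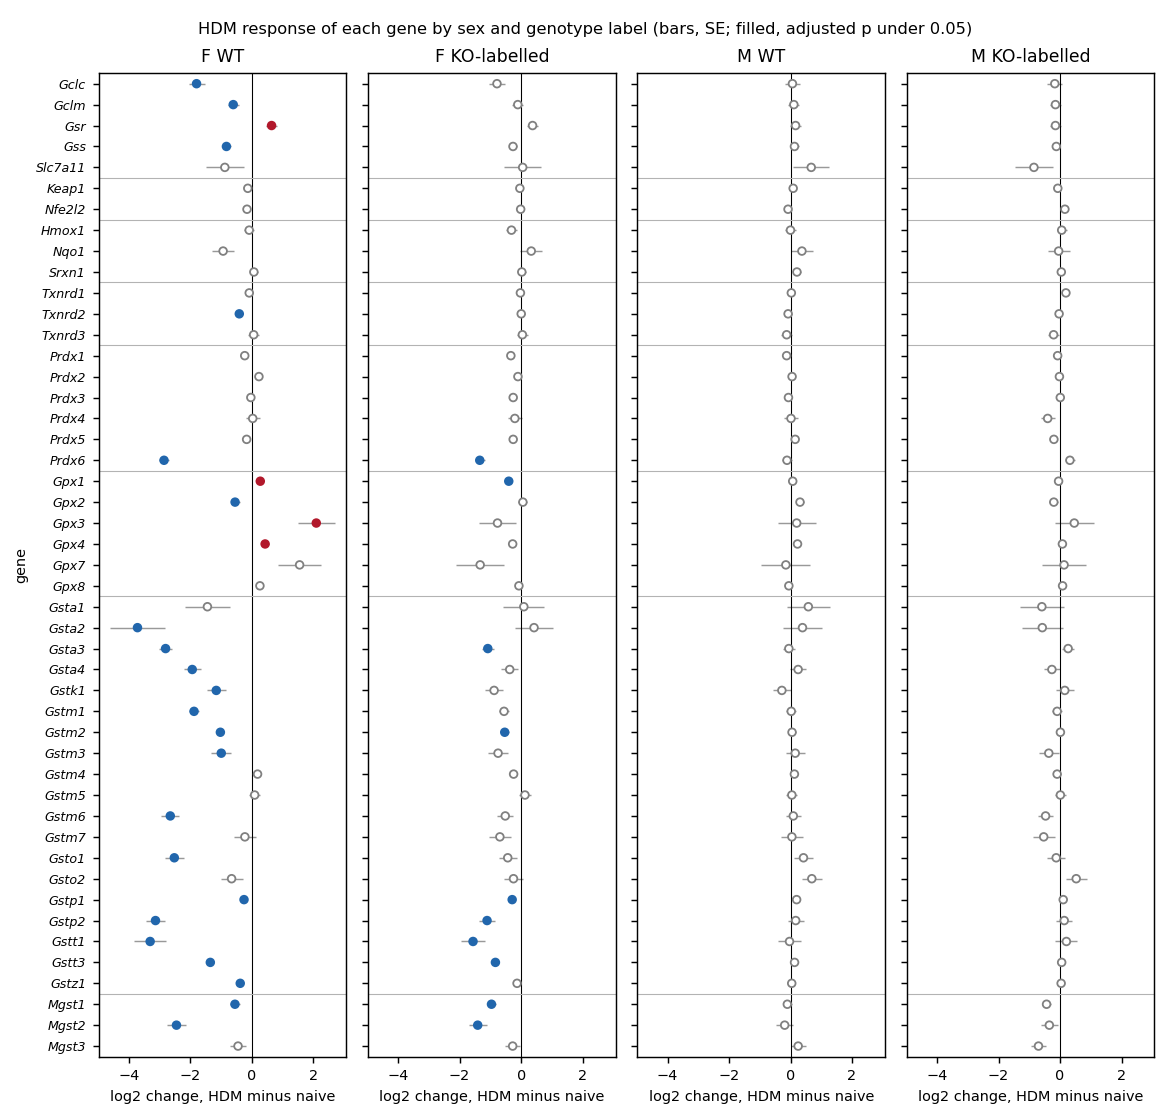
Log2 change from naive to HDM of each of the 47 tested genes (rows, by role) in the 4 combinations of sex and genotype label (panels), with bars for the SE and filled points where the adjusted p was under 0.05. Filled points number 26 in F WT, 10 in F KO-labelled and 0 in both male panels, and the F KO-labelled points are all falls.

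In F KO-labelled cultures the same comparison gave 10 falls and no rise among the 47 members (edgeR). All 10 were also called in F WT cultures, 9 of them in the same direction and Gpx1 in the opposite one. In F WT cultures 43.1% of all genes were called, and the overlap of the 2 sets of calls over all genes was not counted. The background was 10.4% of all genes called, 4.63% higher and 5.77% lower, against 21.3% of members called, all lower, and the members' median log2 change was -0.28 (0.00 over all genes). The naive and HDM libraries labelled F KO also differed in Lman1 itself, which was higher in the HDM ones as given above. Prdx6 had 1114 and 936 CPM in the naive libraries and 431 and 375 CPM in the HDM libraries, 2.54-fold lower (log2 change -1.35 ± 0.15, adjusted p = 0.000633). Gsta3 had 396 and 386 CPM in the naive libraries and 198 and 170.1 CPM in the HDM libraries (log2 change -1.09 ± 0.19, adjusted p = 0.0054). Mgst1 had 248 and 286 CPM in the naive libraries and 152 and 122 CPM in the HDM libraries (log2 change -0.97 ± 0.16, adjusted p = 0.00339). In each of these 3 genes the groups lay well apart. Gstt3 went from 36.7 and 35.3 to 20.7 and 19.6 CPM (log2 change -0.84 ± 0.10, adjusted p = 0.000767), Mgst2 from 7.95 and 7.93 to 3.35 and 2.61 (log2 change -1.41 ± 0.29, adjusted p = 0.0115) and Gstm2 from 249 and 234 to 177 and 156 CPM (log2 change -0.54 ± 0.13, adjusted p = 0.0257). Gstt1 (1.51 and 1.67 then 0.646 and 0.430 CPM), Gstp2 (12.9 and 11.6 then 7.63 and 3.79 CPM) and Gstp1 were called with log2 changes of -1.57 ± 0.40, -1.11 ± 0.27 and -0.29 ± 0.08. Gpx1 went from 68.6 and 78.1 to 60.0 and 50.8 CPM, a fall (log2 change -0.40 ± 0.09, adjusted p = 0.0182).

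Several genes with a large F WT fall did not pass the test in F KO-labelled cultures. Gsto1 had 5887 and 7063 CPM in the naive libraries and 5309 and 4256 CPM in the HDM libraries, with log2 change -0.44 ± 0.29, adjusted p = 0.388. Gclc had 622 and 747 CPM in the naive libraries and 412 and 381 CPM in the HDM libraries, below the naive libraries without overlap (log2 change -0.79 ± 0.25, adjusted p = 0.0709). Gstm1 had 1216 and 1129 CPM in the naive libraries and 869 and 724 CPM in the HDM libraries (log2 change -0.56 ± 0.17, adjusted p = 0.0579), and Gsta2 had 1.68 and 3.28 CPM in the naive libraries and 4.28 and 2.36 CPM in the HDM libraries, in which the groups overlapped (log2 change 0.42 ± 0.62). Nfe2l2, Keap1, Txnrd1, Nqo1, Srxn1, Hmox1 and Slc7a11 did not pass the test here. Nfe2l2 had 449 and 425 CPM in the naive libraries and 446 and 418 CPM in the HDM libraries, and Txnrd1 had 268 and 289 and then 267 and 281 CPM, both with overlapping groups. Keap1 had 116 and 117 and then 114 and 111 CPM, just short of overlap (log2 change -0.04 ± 0.06). Nqo1 had 47.2 and 51.9 CPM in the naive libraries and 65.2 and 59.1 CPM in the HDM libraries, the HDM libraries being the higher ones (log2 change 0.33 ± 0.36). Srxn1 (111 and 139 then 132 and 122 CPM), Hmox1 (55.3 and 62.7 then 48.8 and 46.0 CPM) and Slc7a11 (30.6 and 54.5 then 40.6 and 47.4 CPM) had log2 changes of 0.02 ± 0.13, -0.32 ± 0.17 and 0.05 ± 0.59.
Secretory markers summed to 13203 to 15970.0 CPM in F KO-labelled naive and 7232 to 7879.7 CPM in HDM libraries (4 of 7 called lower). Basal markers summed to 9693 to 10950.0 and 10154 to 12764 CPM, overlapping, with 1 of 6 called lower. Of goblet markers Spdef (-2.86 ± 0.33) and Muc5ac (-2.19 ± 0.36) were called lower and Foxa3 was not. Of multiciliated markers Tekt4 (-3.55 ± 1.01) and Rsph1 (-1.51 ± 0.39) were called lower and the others were not. The general epithelial Krt8 (0.92 ± 0.23) and Krt18 (1.08 ± 0.16) were called higher, and Epcam and Cdh1 were not called. Of 4 tested immune markers Cd68 (-0.97 ± 0.24) was called lower. Without F KO HDM replicate 2 the count of called members was 2, and without either naive library it was 5, with Prdx6 and Gstt3 called each time.

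With the filter on low counts, male cultures gave no member call for HDM. edgeR called 0 of 47 members in M WT and 0 of 47 in M KO-labelled cultures, with a background of 0% of all genes in both, and 1 and 4 members at an unadjusted p under 0.05. DESeq2 also called 0 members in either, while edgeR with no filter called 1 in M WT and 3 in M KO-labelled cultures. The share of all genes called without the filter was not counted. Log2 changes of members ran from -0.28 to 0.69 in M WT (median 0.07) and from -0.85 to 0.53 in M KO-labelled cultures (median -0.05). Prdx6 had 1109 and 1101 CPM in M WT naive, 992 and 1045 in M WT HDM, 1083 and 1533 in M KO-labelled naive and 1574 and 1697 in M KO-labelled HDM libraries. Gsta3 had 387 and 395 CPM in M WT naive, 385 and 366 in M WT HDM, 405 and 521 in M KO-labelled naive and 533 and 579 in M KO-labelled HDM libraries. Every male HDM library held at least 992 CPM of Prdx6 and 366 CPM of Gsta3, levels above those of all 4 female HDM libraries. Gsto1 had 5729.8 and 3839.5 CPM in M WT naive, 8055 and 4744 in M WT HDM, 6504 and 4169.8 in M KO-labelled naive and 4792 and 5005 in M KO-labelled HDM libraries. Replicate 1 was the higher in 3 of the 4 male groups. Gclc had 612 and 415 CPM in M WT naive, 659 and 411 in M WT HDM, 617 and 464 in M KO-labelled naive and 481 and 481 in M KO-labelled HDM libraries, with the same replicate higher in those 3 groups. Over the 8 male libraries Nfe2l2 ranged over 386 to 502 CPM, Keap1 over 111 to 125, Txnrd1 over 262 to 333, Srxn1 over 97.8 to 129.8 and Hmox1 over 49.5 to 73.3 CPM. Gss ranged over 67.7 to 85.7, Gclm over 191 to 284 and Gsr over 145 to 230.4 CPM. The ranges of Slc7a11 (17.3 to 95.5 CPM) and Nqo1 (33.8 to 94.5 CPM) were wider relative to their levels, with treatments that overlapped. M KO-labelled naive replicates differed in Lman1 as given above, and leaving out either still gave 0 called members.

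**Figure D3:**
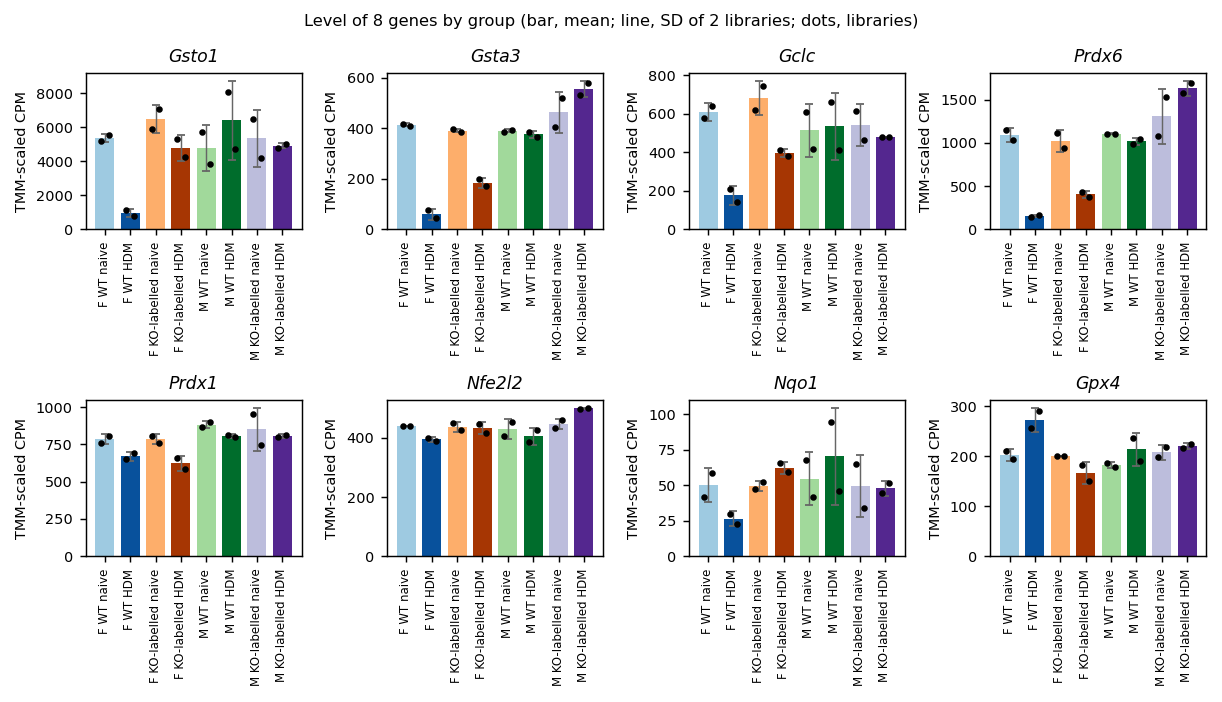
Level of 8 genes in TMM-scaled CPM (vertical axes, from 0) in the 8 groups, with bars for the mean, lines for the SD of 2 libraries and dots for the libraries. Gsto1, Gsta3, Gclc and Prdx6 have their lowest bar in F WT HDM, Gpx4 has its highest there, and the libraries of Nfe2l2 all lie between 386 and 502 CPM.

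Whether the HDM response itself differed was tested as an interaction. Between F KO-labelled and F WT cultures 11 members differed, 9 with a higher (less negative) response in F KO-labelled cultures and 2 with a lower one, among 11.2% of all genes (6.16% higher, 5.08% lower) and 23.4% of members. The 9 were Prdx6 (difference in log2 change 1.51 ± 0.22, adjusted p = 0.00227), Gsta3 (1.72 ± 0.28, adjusted p = 0.00399), Gstm1 (1.32 ± 0.24, adjusted p = 0.00717), Gstm6 (2.13 ± 0.39, adjusted p = 0.00768), Gsto1 (2.08 ± 0.42), Gstp2 (2.02 ± 0.41), Gsta4 (1.56 ± 0.38), Gsta2 (4.14 ± 1.11) and Gstt3 (0.51 ± 0.14). Prdx6 and Gsta3 thus fell in both and fell less in F KO-labelled cultures. Gpx1 (-0.68 ± 0.13, adjusted p = 0.00937) and Gpx4 (-0.71 ± 0.16, adjusted p = 0.0207) differed in the other direction. Cell type markers differed too, with a higher response in F KO-labelled cultures for 5 of 6 basal, 4 of 7 secretory, 1 of 5 squamous and 1 of 4 tested immune markers (Lyz2, 1.29 ± 0.24), and their part was not tested. The count fell to 5 without F WT HDM replicate 2, and to 6 or 7 without F KO naive replicate 2, F KO naive replicate 1, F KO HDM replicate 2 or F WT naive replicate 1. Prdx6, Gsta3, Gstm1, Gstm6 and Gpx1 were called whichever library was left out, and the other 6 were not.

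Between male and female WT cultures 17 members differed in their HDM response, all higher in M WT, among 24.2% of all genes (12.8% higher, 11.3% lower) and 36.2% of members. Prdx6 (2.74 ± 0.22, adjusted p = 1.35e-05), Gstt3 (1.48 ± 0.14, adjusted p = 4.56e-05), Gsta3 (2.75 ± 0.28, adjusted p = 6e-05), Gstp2 (3.30 ± 0.40, adjusted p = 0.000219) and Gstm1 (1.90 ± 0.24, adjusted p = 0.000269) had the smallest adjusted p. The others were Gsta2, Gsta4, Gsto1, Gstm6, Gstm2, Gstt1, Gstz1, Gstp1, Mgst2, Gclc, Gss and Gpx2, from 0.41 (Gstz1) to 4.10 (Gsta2). All but Gsta2, Gstp1 and Gstz1 were called whichever library was left out. Of the markers, 6 of 7 secretory, 5 of 6 basal, 4 of 7 multiciliated, 2 of 3 goblet, 1 of 5 squamous and 2 of 4 tested immune genes had a higher response in M WT as well, 3 of 4 general epithelial and 1 of 7 fibroblast genes had a lower one, and their part was not tested. Both interactions use the F WT libraries, so they are not separate evidence. Between M KO-labelled and F KO-labelled cultures 3 members differed, all higher in males, among 3.56% of all genes (1.77% higher, 1.79% lower) and 6.38% of members. These were Prdx6 (1.67 ± 0.22, adjusted p = 0.00468), Gstt3 (0.89 ± 0.14, adjusted p = 0.00925) and Gsta3 (1.35 ± 0.27, adjusted p = 0.0229). Higher in males were also 2 of 7 secretory, 1 of 3 goblet and 1 of 4 tested immune markers, 2 of 4 general epithelial markers were lower, and their part was not tested. The count was 3 without M KO naive replicate 1 and 4 without M KO naive replicate 2, the libraries that differed in Lman1, but 1 without F KO HDM replicate 2, F KO naive replicate 1 or M KO HDM replicate 2, and 5 without F KO HDM replicate 1. Prdx6 was called in every case.

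Genotype labels were then compared within a treatment. In HDM-treated female cultures 23 members differed, 18 higher and 5 lower in F KO-labelled than in F WT libraries, among 29.2% of all genes (14.9% higher, 14.3% lower) and 48.9% of members (38.3% higher). This contrast shares the F WT HDM libraries with the F WT response. Prdx6 was at 431 and 375 CPM against 140.2 and 162 CPM, 2.67-fold higher (log2 difference 1.42 ± 0.16, adjusted p = 0.000143). Gsta3 was at 198 and 170.1 against 75.1 and 43.4 CPM (log2 difference 1.63 ± 0.20, adjusted p = 0.000253), Gsto1 at 5309 and 4256 against 1109 and 762 (log2 difference 2.35 ± 0.31, adjusted p = 0.000388) and Gstm1 at 869 and 724 against 388 and 260.1 CPM (log2 difference 1.30 ± 0.17, adjusted p = 0.000403). In all 4 the higher group stood clear of the lower. Genes of glutathione synthesis were also higher, with Gclc (log2 difference 1.18 ± 0.26), Gss (0.72 ± 0.13) and Gclm (0.59 ± 0.18), as was Nqo1, at 65.2 and 59.1 against 30.0 and 22.5 CPM (log2 difference 1.24 ± 0.37, adjusted p = 0.0273). The 5 lower members were all glutathione peroxidases, Gpx1 (-0.68 ± 0.09, adjusted p = 0.000489), Gpx4 (-0.72 ± 0.12), Gpx3 (-2.51 ± 0.62), Gpx7 (-2.58 ± 0.77) and Gpx8 (-0.31 ± 0.10), whereas Gpx2 was higher (0.67 ± 0.15). In F WT HDM replicates 1 and 2 Gpx3 had 220 and 685 counts and Gpx7 18 and 77. With 1 library left out, log2 differences ran from -3.16 to -1.33 for Gpx3 and -3.33 to -1.05 for Gpx7. For Gpx8 they ran from -0.43 to -0.20, and its call was lost under 3 of 6 other settings, that of Gpx7 under 1. Basal markers (5 of 6) and secretory markers (5 of 7) were higher in the same libraries, as were 2 of 5 squamous and 2 of 4 tested immune markers, 3 of 7 fibroblast and 2 of 4 general epithelial markers were lower, and their part was not tested. Without F WT HDM replicate 2 the count was 12. The 12 called whichever library was left out included Prdx6, Gsta3, Gsto1, Gstm1, Gss, Gpx1 and Gpx4 but not Gclc, Gclm or Nqo1.

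In naive female cultures no member was called between genotype labels with the filter on low counts. This was 0 of 47 by edgeR against 0% of all genes, with 0 at an unadjusted p under 0.05 and 0 by DESeq2. With no filter edgeR called 1 member, with no share of all genes counted. Lman1 itself did not pass the edgeR test there. It was at 12.8 and 12.8 CPM in F KO-labelled naive libraries against 123 and 123 CPM in F WT naive ones. The absence of calls therefore does not show that the label made no difference. In naive male cultures 0 members were called (0% of all genes), 2 had an unadjusted p under 0.05 and DESeq2 called 0. In HDM-treated male cultures edgeR called 0 (0% of all genes), but 10 members had an unadjusted p under 0.05 and DESeq2 called 3, Prdx6, Nfe2l2 and Mgst3, while edgeR with no filter on low counts called 12. Prdx6 was at 1574 and 1697 CPM in M KO-labelled against 992 and 1045 CPM in M WT libraries (log2 difference 0.68 ± 0.15, edgeR adjusted p = 0.159). Nfe2l2 was at 498 and 502 against 386 and 426 CPM (log2 difference 0.30 ± 0.08, edgeR adjusted p = 0.161), and Mgst3 at 12.6 and 13.0 against 27.9 and 21.1 CPM (log2 difference -0.94 ± 0.25). In each the 2 groups did not overlap, but that held for 24 of the 47 members in this comparison. It is no separate support for the 3 genes, which DESeq2 called in the same libraries.

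With the filter on low counts, edgeR called no member between the sexes before treatment. Without it edgeR called 3 members in WT and 3 in KO-labelled cultures, with no share of all genes counted. Between naive M WT and F WT cultures edgeR called 0 of 47 members (0.1% of all genes), 3 had an unadjusted p under 0.05 and DESeq2 called 0. Between naive M KO-labelled and F KO-labelled cultures edgeR called 0 (0.188% of all genes), 5 had an unadjusted p under 0.05 and DESeq2 called 1, Gstm2. The share of all genes that DESeq2 called was not counted. Gstm2 was at 344 and 336 CPM in male and 249 and 234 CPM in female KO-labelled libraries (log2 difference 0.50 ± 0.13, edgeR adjusted p = 0.203), and at 358 and 316 and 267 and 233 CPM in the WT ones (log2 difference 0.43 ± 0.13), the male libraries being higher without overlap in both. Groups did not overlap for 18 members in the KO-labelled and 14 in the WT comparison, so this is no separate support.

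Genes that work beside the members were read from lists of known function, against 22.4% of all genes called lower and 20.6% called higher with HDM in F WT cultures. In F WT cultures 8 of 13 tested genes of glutathione turnover fell with HDM and none rose, among them Cbs (-1.65 ± 0.18), which starts the route from homocysteine to cysteine, Anpep (-1.63 ± 0.23) and Oplah (-1.18 ± 0.17). Of 9 genes supplying NADPH, 3 fell, Idh1 (-1.34 ± 0.09), Me1 (-0.85 ± 0.11) and Pgd (-0.61 ± 0.18), and none rose. Of 16 further NRF2 targets 5 fell and 3 rose, so their directions were mixed. The falls were Aldh3a1 (-2.69 ± 0.55), Cbr3 (-1.25 ± 0.25), Blvrb (-1.21 ± 0.12), Abcc1 (-1.01 ± 0.17) and Cbr1 (-0.89 ± 0.09), the rises Slc48a1 (1.09 ± 0.09), Osgin1 (0.93 ± 0.11) and Abcc4 (0.49 ± 0.15). Of 9 partners and regulators of NRF2, the small Maf genes Maff (1.13 ± 0.33), Mafk (0.59 ± 0.09) and Mafg (0.53 ± 0.13) rose with Nfe2l1 (0.45 ± 0.07), while the repressor Bach1 (-0.59 ± 0.12) and Btrc (-0.48 ± 0.10) fell. Of 11 thioredoxin, glutaredoxin and methionine sulfoxide reductase genes 3 rose and 1 fell, the last being Txnip (-2.71 ± 0.24), which binds and inhibits thioredoxin. Of the superoxide dismutases and catalase, Sod1 (-0.35 ± 0.11) and Sod2 (-0.44 ± 0.07) fell and Sod3 (3.37 ± 1.06), an extracellular enzyme, rose. The fibroblast markers Lum (4.6 ± 1.25) and Dcn (3.39 ± 1.14) also rose, and the others of that list were not called. Summed fibroblast markers differed between the F WT HDM replicates (48.9 and 595 CPM), and their part in the Sod3 value was not tested. The shares of NADPH and further NRF2 target genes called lower lay near that of all genes.

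In F KO-labelled cultures 5.77% of all genes were called lower and 4.63% higher. Cbs (-1.34 ± 0.17) and Anpep (-0.92 ± 0.22) fell among 13 turnover genes, Idh1 (-0.61 ± 0.09) and Me1 (-0.69 ± 0.11) among 9 NADPH genes, and Cbr1 (-0.65 ± 0.09) and Blvrb (-0.60 ± 0.12) among 16 further NRF2 targets, of which Osgin1 (0.45 ± 0.11) rose. Msrb3 (0.62 ± 0.10), a methionine sulfoxide reductase, also rose, and Btrc (-0.39 ± 0.10) and Sod1 (-0.39 ± 0.11) fell. Txnip, Aldh3a1, Idh1, Blvrb, Bach1 and Slc3a2 had a higher HDM response in F KO-labelled than in F WT cultures by the interaction test, with Txnip at 2.13 ± 0.32 and Idh1 at 0.73 ± 0.13, while Slc48a1 (-0.96 ± 0.13) and Mafk (-0.60 ± 0.13) had a lower one. No other gene of the lists was called in that interaction, where 11.2% of all genes were called (6.16% higher, 5.08% lower). In that interaction the share of listed genes called lay near that of all genes. For the HDM response of F KO-labelled cultures the share of listed genes called lower lay above the 5.77% of all genes.

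**Figure D4:**
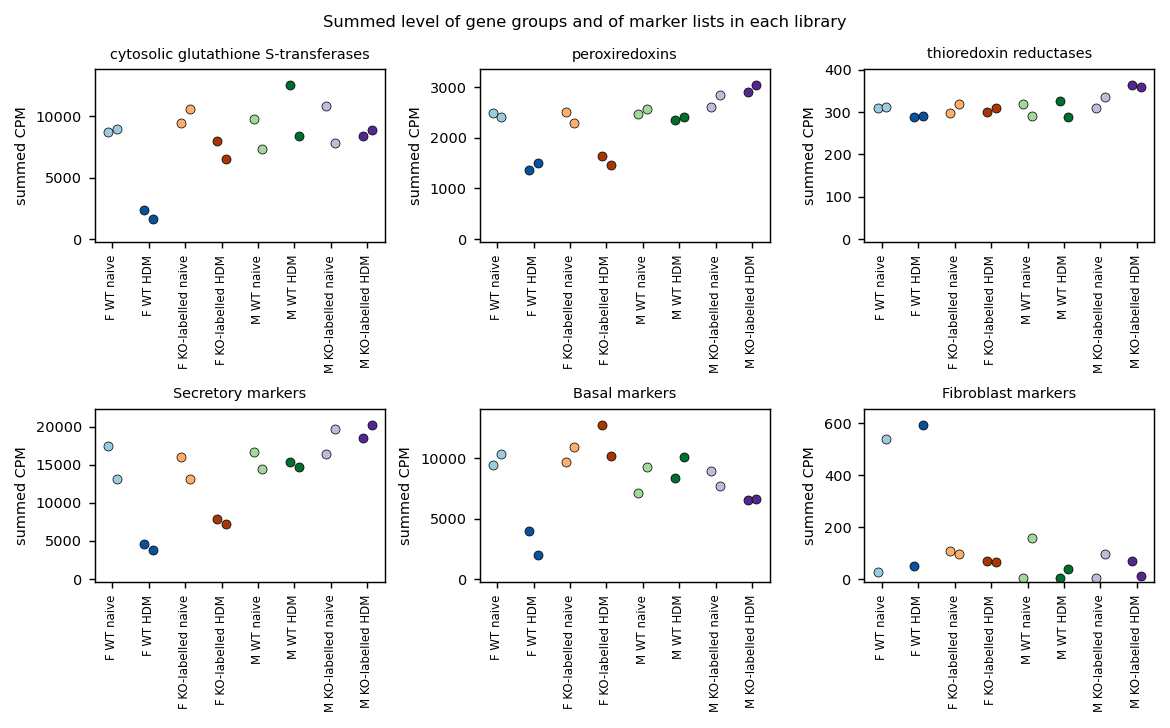
Summed CPM (vertical axes) of 3 groups of members and of 3 lists of cell type markers in each of the 16 libraries (dots, by group). Cytosolic GSTs lie at 1668 to 2354 CPM in F WT HDM and at 6529.5 CPM or above in every other library, secretory and basal markers are lowest in F WT HDM as well, and thioredoxin reductases stay between 289 and 365 CPM.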

How the data were processed

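Members and lists were chosen with earlier results of these data known. Raw counts, as the authors deposited them, were given per Ensembl identifier for 16 libraries of mRNA-enriched, randomly primed RNA. The submitters' processing notes name Trimmomatic 0.36, STAR 2.5.2b, featureCounts, Subread 1.5.2, DESeq2 and build GRCm38, without their roles or settings, so the treatment of strand and of reads shared by paralogs or overlapping genes is unknown. Columns were matched to samples by the group and replicate that each name spells; a name without a number was taken as replicate 1. Symbols and positions came from GENCODE M21, and 259 identifiers without a match held 0.0106% of counts.

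Genes were filtered with filterByExpr by group, scaled with TMM and tested with edgeR 4.0.16 (R 4.3.3), in a quasi-likelihood fit of 8 group means to all 16 libraries. P-values were two-sided and adjusted (Benjamini-Hochberg) over 15993 genes in each of 13 comparisons. The p-values set each difference against the spread between libraries within groups, shared over the 8 groups. One preparation served more than 1 condition, so libraries of different groups may not be independent, which this fit does not take into account. Errors beside log2 changes are SE (n = 2 a group). Printed levels are CPM; levels per kb use merged exon length. All members were eligible to be named. Per-library values were given for the 10 genes listed by name and Txnrd1, for the 8 called members with the steepest HDM change in each female group, for up to 5 called members with the smallest adjusted p in other comparisons, and for the member of each role with the highest level per length. Other named values were chosen after they were seen. Alternatives were DESeq2 1.42.0, no filter, scaling by the upper quartile or by library size alone, a replicate block, fits of only the compared libraries, and leaving out each library. Scripts were tested on simulated data. Tables and figures used Python 3.11.15, pandas 2.3.3 and matplotlib 3.10.9.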

Additional observations from a re-analysis of the deposited data

Results flagged for a closer look

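Members whose HDM response differed between groups are listed here with the difference in log2 change, each past an adjusted p of 0.05 in edgeR's interaction test. For F KO-labelled minus F WT cultures these were Gsta3 (1.72), Prdx6 (1.51), Gstm6 (2.13), Gstm1 (1.32), Gstt3 (0.51), Gpx4 (-0.71), Gsta4 (1.56), Gsta2 (4.14), Gpx1 (-0.68), Gstp2 (2.02) and Gsto1 (2.08). For M WT minus F WT cultures they were Gsta3 (2.75), Prdx6 (2.74), Gss (0.95), Mgst2 (2.26), Gstm6 (2.74), Gstm2 (1.07), Gstm1 (1.90), Gstt3 (1.48), Gstt1 (3.27), Gclc (1.85), Gsta4 (2.18), Gsta2 (4.10), Gpx2 (0.85), Gstz1 (0.41), Gstp1 (0.45), Gstp2 (3.30) and Gsto1 (2.94). For M KO-labelled minus F KO-labelled cultures they were Gsta3 (1.35), Prdx6 (1.67) and Gstt3 (0.89). The first and second sets share the F WT libraries, and 9 members are in both (9 of 11 and 9 of 17). The overlap of these calls over all genes was not counted. The first set and the M KO-labelled set share the F KO-labelled libraries, whose naive and HDM cultures differed in Lman1. No group held the 4 libraries needed to look for a single outlying library.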

How the results depend on the processing

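No called member reversed its direction under any alternative, and of the 1024 repeats of single calls 870 stayed past the threshold and 154 did not. Shares of all genes called were counted only for the filtered, TMM-scaled edgeR fit of all 16 libraries. The counts of members under the alternatives therefore have no background beside them. With no filter on low counts, called members were 20 for the F KO-labelled HDM response (10 with the filter), 22 for its difference from F WT (11), 13 for the male minus female KO-labelled response (3), 12 between genotype labels in HDM-treated males (0), 3 for the M KO-labelled HDM response, 1 for that of M WT, 1 between genotype labels in naive females, and 3 between sexes in naive WT and 3 in naive KO-labelled cultures (each 0 with the filter), and the cause was not tested. With only the compared libraries, which leaves fewer libraries for the spread, counts were 17 for the F KO-labelled response and 5 for the male minus female KO-labelled response. DESeq2 gave 5 for the latter, 3 between labels in HDM-treated males and 1 between sexes in naive KO-labelled cultures. With a replicate block the counts were 17 for the F KO-labelled minus F WT response, 8 for the male minus female KO-labelled response and 4 between labels in HDM-treated males, and 28 for the F WT and 14 for the F KO-labelled response. Replicate differences correlated at 0.286 (F WT), -0.0511 (F KO-labelled), 0.437 (M WT) and -0.144 (M KO-labelled) between naive and HDM libraries, and over all 10 pairs of groups from -0.164 (naive M against F KO-labelled) to 0.483 (naive M KO-labelled against M WT). Some pairs thus correlated and others did not, no source used here ties a number to a shared preparation, and the numbers were not taken to pair the samples. Leaving out 1 library, which leaves a lone sample assumed to vary like the others, gave 16 to 24 calls in F WT, 2 to 8 in F KO-labelled, 5 to 15 for their difference, 14 to 19 for the male minus female WT response, 1 to 5 for the male minus female KO-labelled response and 12 to 22 between labels in HDM-treated females, and 0 in the other 7 comparisons.

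Gpx1 lost its F WT call with library-size-only scaling, with no filter, with only the compared libraries and with the replicate block (log2 change 0.20 to 0.29), but not with upper-quartile scaling or DESeq2. With 2 libraries a group, precision is limited by their number, and for Gsta2 and Gstt1 by counts under 6 in F WT HDM libraries.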

Other observations

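In male cultures, replicates differed for the cystine transporter and for several NRF2 targets, in the same direction in naive and HDM-treated M WT libraries. Slc7a11 was at 57.8 and 26.8 CPM in M WT naive replicates 1 and 2 and at 95.5 and 39.4 CPM in M WT HDM replicates 1 and 2. Nqo1 was at 67.6 and 41.3 and then 94.5 and 46.2 CPM, Gsta4 at 1449.5 and 1075 and then 1853 and 1139.9 CPM, and Gclm at 254 and 203 and then 284 and 208 CPM, with replicate 1 the higher in each. In M KO-labelled naive cultures replicate 1 was also the higher for Slc7a11 (65.4 and 17.3 CPM), Nqo1 (64.8 and 33.8 CPM), Gsta4 (1651 and 1079 CPM) and Gclm (264 and 191 CPM). That replicate had 14.2 CPM of Lman1 and replicate 2 had 63.4 CPM. The M KO-labelled HDM replicates lay close together for Slc7a11 (23.0 and 22.8 CPM) and Nqo1 (44.1 and 51.3 CPM). Prdx6 had the opposite order in M KO-labelled naive cultures (1083 and 1533 CPM). What separates these replicates was not tested.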
